A study of Mus musculus with 2 samples.

Results

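Arterial endothelial cells line the arteries and arterioles of the lung. In a single-cell RNA-Seq (scRNA-Seq) experiment on mouse lung they were taken as the cells that carried RNA of general endothelial genes together with at least 2 UMIs of the arterial genes Gja5, Bmx and Dkk2, a UMI (unique molecular identifier) standing for 1 captured RNA molecule. They numbered 445 of 24725 cells kept, 344 in the Cebpa FF library and 101 in the Cebpa KO library. Members were chosen by these measured values: at least 200 genes, at most 20% mitochondrial UMIs, at least 3000 UMIs in all, at least 10 UMIs summed over Pecam1, Cdh5, Cldn5 and Calcrl, no UMI of the leukocyte gene Ptprc, fewer than 3 UMIs of the venous genes Slc6a2, Prss23 and Vegfc, and fewer than 3 of the lymphatic genes Mmrn1, Prox1 and Reln. The levels of these genes, and of genes that go with them, are therefore given as a description with no test.

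Cebpa FF mice carried floxed Cebpa alleles, and Cebpa KO mice carried the same alleles with Sftpc-CreERT2, so that tamoxifen deletes Cebpa in alveolar type 2 (AT2) cells, which make surfactant. Sftpc is an AT2 gene, and endothelial cells were not the target of the deletion. Tamoxifen was injected daily at 75 mg/kg, 5 times, and lungs were taken 26 weeks after it began. For analyses as late as this the methods add a round of weekly injections, and they give the mice as of mixed background, of both sexes and 3 months old unless stated otherwise. Lungs of 3 mice per genotype went into 1 library per genotype, barcodes do not tell the mice apart, and the labels mention sorting where the methods describe a whole-lung suspension. There were thus no replicates: every interval below is an exact 95% counting interval, which covers counting error only, and no comparison between the genotypes has a test.

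The Cebpa FF library held 69200420 UMIs in 11721 barcodes, of which 11487 were kept and 8209 had at least 3000 UMIs. The Cebpa KO library held 64697396 UMIs in 13373 barcodes, of which 13238 were kept and 6212 had at least 3000 UMIs. Both libraries shared 45 barcode sequences, and 1 Cebpa FF member had such a barcode. The median member held 5562 UMIs from 2363 genes in Cebpa FF and 6135 UMIs from 2537 genes in Cebpa KO, and members together gave 2292257 and 799303 UMIs. Cebpa itself was low in members, at 24.4 CPM (UMIs of a gene per 1000000 UMIs of the same cells; 56 UMIs; interval 18.5 to 31.7) in Cebpa FF and 12.5 CPM (10 UMIs; 6.0 to 23.01) in Cebpa KO, and the intervals overlapped.

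Arterial endothelium is set apart from capillary and venous endothelium by Notch signalling, in which the ligands Dll4 and Jag1 on one cell activate Notch receptors on its neighbour and induce the transcription factors Hey1 and Hey2. Arterial cells also express ephrin-B2 (Efnb2), the gap junction proteins connexin 40 (Gja5) and connexin 37 (Gja4), and the chemokine Cxcl12, and they sit on a wall rich in elastic fibres. Capillary endothelium of the lung is made up of general capillary cells, which carry Gpihbp1 and Kit, and aerocytes, which carry Car4 and Ednrb and line the gas exchange surface.

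Of the 3 choosing genes, Bmx, a non-receptor tyrosine kinase, was the most abundant. Bmx was at 502 CPM (474 to 532) in Cebpa FF members and 303 CPM (266 to 343) in Cebpa KO members. Gja5 was at 163 CPM (147 to 181) and 130 CPM (106 to 158), and Dkk2, a secreted Wnt antagonist, at 55.0 CPM (45.8 to 65.4) and 38.8 CPM (26.4 to 55.1). All 3 were therefore lower in the Cebpa KO members, with intervals that overlapped for Gja5 and Dkk2 and not for Bmx. Bmx alone qualified 160 Cebpa FF members (46.5%) and 47 Cebpa KO members (46.5%), Gja5 with Bmx 125 (36.3%) and 26 (25.7%), and Gja5 alone 20 (5.81%; 3.59 to 8.84) and 15 (14.9%; 8.56 to 23.3).

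Members were not of 1 kind. In Cebpa FF 118 members (34.3%) had exactly 2 UMIs of the choosing genes, 102 (29.7%) had 3 to 4 and 124 (36.0%) had 5 or more. In Cebpa KO the numbers were 52 (51.5%), 23 (22.8%) and 26 (25.7%), so that cells at the threshold made up a larger part of that library's members. Just outside the threshold, with 1 UMI and the rest of the rule met, lay 358 Cebpa FF and 142 Cebpa KO cells.

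Several arterial genes outside the rule were highest in the cells with the highest sum, but not all were. At sum 5 or more Cxcl12 was at 1524.5 CPM in Cebpa FF and 1297 CPM in Cebpa KO, and Sox17 at 127 and 198 CPM. These lay below the levels of both genes over all members, which are given further on. Hey2, a Notch target, was at 5.67 CPM in Cebpa FF cells of sum 1, 15.4 CPM at sum 2 and 130.5 CPM at sum 5 or more, and at 4.75, 7.65 and 78.2 CPM in Cebpa KO. Cytl1, a secreted cytokine-like protein, went from 20.5 to 100.7 to 1114 CPM in Cebpa FF and from 10.5 to 125 to 1081 CPM in Cebpa KO. Capillary genes ran the other way. Gpihbp1, which carries lipoprotein lipase on capillary endothelium, was at 1268 CPM at sum 2 and 366 CPM at sum 5 or more in Cebpa FF, and at 1186 and 423 CPM in Cebpa KO, beside 1586 and 1368 CPM in general capillary cells, which Gpihbp1, Aplnr and Kit define here. Kit, the stem cell factor receptor, was at 393 and 109.9 CPM in Cebpa FF and at 474 and 179 CPM in Cebpa KO. Cells at the threshold thus kept most of the general capillary level of Gpihbp1 in both libraries, while cells of 5 or more UMIs carried the most Hey2 and Cytl1.

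**Figure D1:**
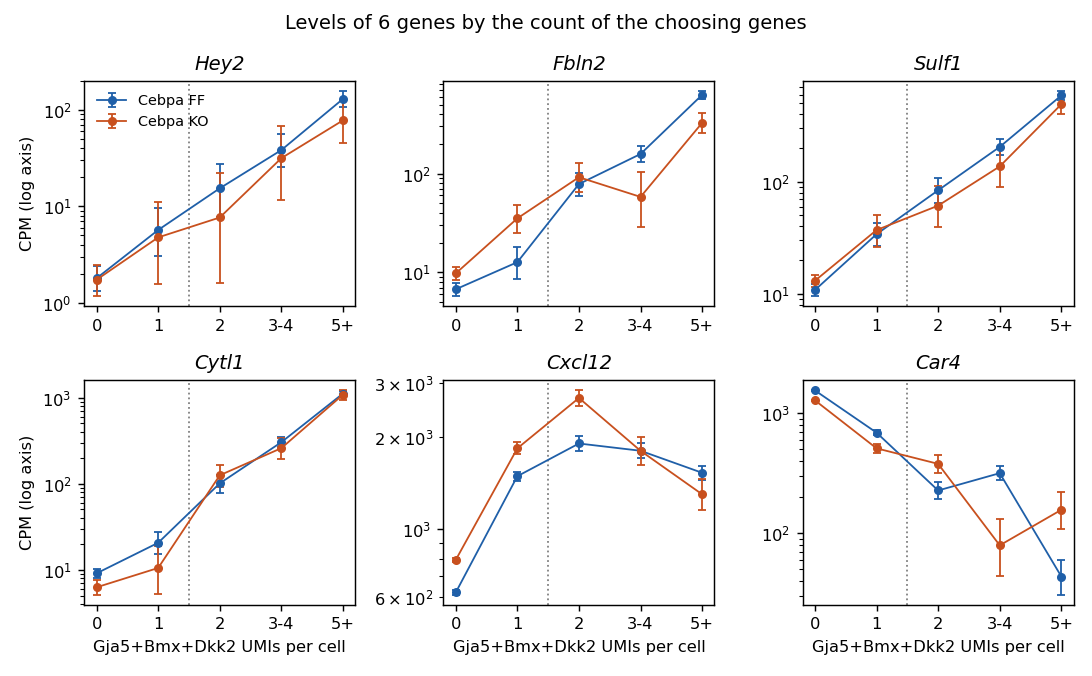
CPM (log axis) of Hey2, Fbln2, Sulf1, Cytl1, Cxcl12 and Car4 by the number of Gja5+Bmx+Dkk2 UMIs of a gated endothelial cell, with exact 95% counting intervals. Blue is the Cebpa FF library and orange the Cebpa KO library, and cells right of the dotted line are the members. Hey2, Fbln2, Sulf1 and Cytl1 are highest at 5 or more UMIs in both libraries, Cxcl12 is highest at 2 UMIs, and the aerocyte gene Car4 is highest at 0.

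The question of what else these cells expressed was put to the other gated endothelial cells, those with no UMI of the choosing genes (5114 in Cebpa FF and 3067 in Cebpa KO), within each library. Of 11588 genes outside the rule with at least 50 UMIs in each library, 317 (2.74%) were more than 2-fold higher in members of both libraries and 191 (1.65%) more than 2-fold lower. As the rule used this contrast, nothing is read from these counts.

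Leading genes of the members, those with the highest smaller value of both log2 ratios, were Sfrp1, Thsd7a, Stk32a, Cdh13 and Hey2. Sfrp1, a secreted Wnt antagonist, was at 118 CPM in Cebpa FF members (271 UMIs) and 175 CPM in Cebpa KO members (140 UMIs), with log2 ratios over the other cells of 5.11 (4.79 to 5.44) and 5.10 (4.74 to 5.47). Sfrp1 RNA lay mostly in members of 3 or more UMIs of the choosing genes. In Cebpa FF its levels were 2.80 CPM (2 UMIs) at sum 2, 68.3 CPM at 3 to 4 and 253 CPM at 5 or more, and in Cebpa KO they were 25.5, 438 and 216 CPM. Of the 140 Cebpa KO UMIs 110 lay in 3 members, with 83 in a single one, and with members rich in the markers of another type left out Sfrp1 was at 123 CPM in Cebpa FF and 76.8 CPM in Cebpa KO. Cdh13, T-cadherin, an adhesion protein and adiponectin receptor, was at 205 and 141 CPM, with log2 ratios of 4.62 (4.40 to 4.84) and 4.23 (3.87 to 4.58). Thsd7a, a thrombospondin-domain protein of endothelium, was at 128 and 81.3 CPM and was as high in lymphatic cells, at 137 and 70.3 CPM, so that it did not set arterial cells apart from all other endothelium.

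Hey2 was at 66.3 CPM in Cebpa FF members (152 UMIs) and 32.5 CPM in Cebpa KO members (26 UMIs), against at most 5.62 CPM in any other class of endothelial cell. Its log2 ratios were 5.06 (4.64 to 5.50) and 4.13 (3.36 to 4.87). The Hey2 promoter is shown because Hey2 is the Notch target that most set members apart, and the Bmx promoter because Bmx chose most members. Both are from RefSeq, build GRCm38.p6, 250 bases before to 50 after the start, written 5′ to 3′ on the gene's strand, and capitals mark TGGGAA, the core bound by the Notch effector RBPJ, or its reverse complement TTCCCA. The Hey2 promoter lies at chr10:30842734-30843033 on the minus strand and the Bmx promoter at chrX:164258144-164258443 on the minus strand.
Hey2: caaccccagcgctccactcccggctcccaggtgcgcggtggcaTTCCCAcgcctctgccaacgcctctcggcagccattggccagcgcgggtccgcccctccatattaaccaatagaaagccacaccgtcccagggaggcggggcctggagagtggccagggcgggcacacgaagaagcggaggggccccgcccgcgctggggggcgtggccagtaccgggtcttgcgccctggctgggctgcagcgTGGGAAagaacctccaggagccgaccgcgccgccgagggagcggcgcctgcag
Bmx: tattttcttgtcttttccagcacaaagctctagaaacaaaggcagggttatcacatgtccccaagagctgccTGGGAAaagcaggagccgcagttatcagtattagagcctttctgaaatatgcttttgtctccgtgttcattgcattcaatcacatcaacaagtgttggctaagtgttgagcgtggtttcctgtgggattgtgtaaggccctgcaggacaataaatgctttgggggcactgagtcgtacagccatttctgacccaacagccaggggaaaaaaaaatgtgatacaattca
Hey2 held 2 matches and Bmx 1. Of the 20 leading genes 13 had a promoter in the table and 5 of these (38.5%) held a match, as did 5 of 17 matched genes (29.4%) of the arterial list below, against 28.3% of all 27025 genes. A match is a description of letters and not a bound site.

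Several leading genes belong to the matrix or act on it. Sulf1, an extracellular heparan sulfate 6-O-endosulfatase, was at 314 CPM in Cebpa FF members and 196 CPM in Cebpa KO members, with log2 ratios of 4.63 (4.45 to 4.80) and 3.82 (3.54 to 4.10). Fbln2, fibulin 2, an elastic fibre protein, was at 312 and 148 CPM, with ratios of 4.65 (4.47 to 4.82) and 3.46 (3.14 to 3.77). Htra1, a secreted serine protease, had ratios of 4.16 and 3.71, and Ccdc80, a matrix protein, of 3.36 and 3.78. In both libraries the 4 genes were more than 8-fold higher in members, and the intervals of the libraries did not overlap for Sulf1 and Fbln2.

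Other leading genes were membrane and intracellular proteins. Slc45a4, a solute carrier, was at 208 and 51.3 CPM, with log2 ratios of 5.24 (4.99 to 5.50) and 3.80 (3.22 to 4.36). Adgrg6, an adhesion G protein-coupled receptor, was at 385 and 154 CPM, with ratios of 4.21 and 3.26. Fads2, the fatty acid delta-6 desaturase, was at 151 and 67.6 CPM, with ratios of 4.80 and 3.51. Cdkn1c, the cell cycle inhibitor p57, had ratios of 3.72 and 3.41, and Cytl1 of 3.23 and 3.91. The remaining leading genes (Stk32a, Slc4a4, Fblim1, Pdlim3, Nuak1, Eps8l2 and Cd55) had ratios from 3.03 to 4.79.

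**Figure D2:**
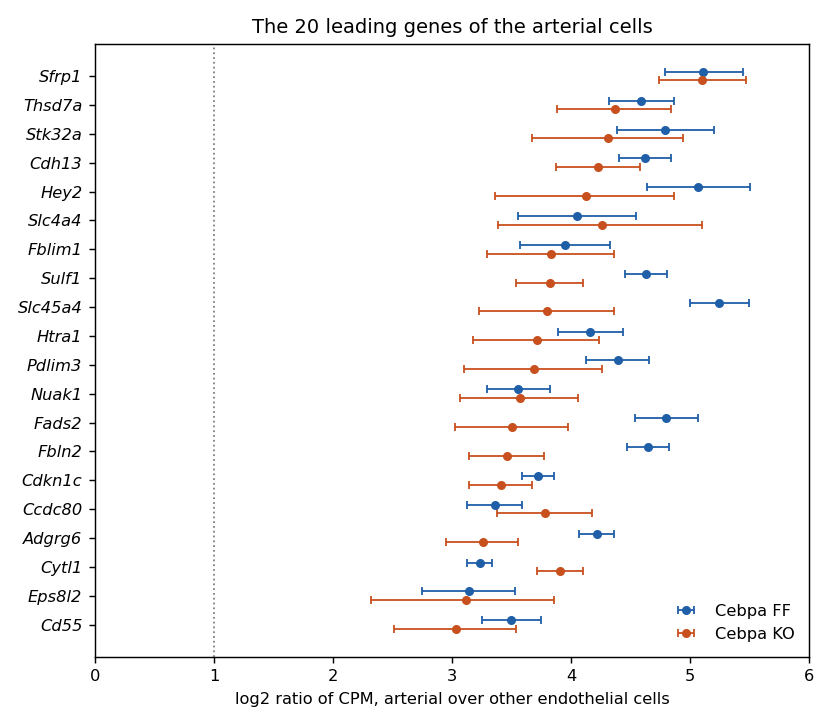
Log2 ratio of CPM in arterial members over the other gated endothelial cells for the 20 leading genes outside the rule, with exact 95% counting intervals; blue is the Cebpa FF and orange the Cebpa KO library, and the dotted line marks 2-fold. Every ratio lies at or above 3.03 in both libraries, and Slc45a4, Fads2, Fbln2, Sulf1 and Adgrg6 are higher in Cebpa FF and Cytl1 in Cebpa KO with intervals that do not overlap.

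Among the genes lowest in members were aerocyte genes. Apln, the apelin ligand, had 30 UMIs in Cebpa FF members and 7 in Cebpa KO members, with log2 ratios of -2.73 (-3.30 to -2.22) and -3.66 (-4.97 to -2.61) against all other endothelial cells. Egflam was at -2.73 and -2.95, Chst2 at -2.69 and -3.37 and Rgs6 at -2.80 and -2.90. General capillary cells are defined as lacking aerocyte genes, Apln among them, and against them Egflam, Chst2 and Rgs6 were instead higher in members, with ratios from 0.47 to 1.71. All 7 aerocyte markers of the list (Car4, Ednrb, Apln, Fibin, Tbx2, Emp2 and Chst1) were more than 2-fold lower in both libraries, beside 1.65% of all genes. Cdkn2a had 1 UMI in the members of each library. Hemoglobin RNA was also low, with 50 and 56 UMIs of Hbb-bs and log2 ratios of -3.71 and -3.06. Its ratios rested on the other cells, some of which carried many hemoglobin UMIs, and with cells rich in the markers of another type left out Hbb-bt was at 0.13 (-1.03 to 1.10) and 0.09 (-1.24 to 1.16).

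Of the list of 20 arterial genes outside the rule, 12 were more than 2-fold higher in members of both libraries and none lower, beside 2.74% and 1.65% of all genes. The median log2 ratios were 1.12 in Cebpa FF and 1.27 in Cebpa KO, beside -0.06 and -0.01 over all genes. Mecom, a transcription factor, was at 3.23 and 2.85, and Plac8 at 2.59 and 1.49. Efnb2, the arterial ephrin, was at 958 and 689 CPM with ratios of 1.47 and 1.21. Cxcl12, the ligand of CXCR4, was at 1726 and 2092 CPM with ratios of 1.52 and 1.41, Gja4 at 1.19 and 1.11, and Sema3g, a secreted semaphorin, at 1.08 and 1.34. Edn1, endothelin 1, a vasoconstrictor, was at 1.09 and 1.41. Sox17, an arterial transcription factor, was at 0.02 (-0.13 to 0.17) and 0.48 (0.30 to 0.66) and was higher in general capillary cells (269 and 402 CPM) than in members (170 and 335 CPM). Nrp1, a VEGF co-receptor, was lower in members, at -0.79 and -0.69.

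Of the 17 Notch pathway genes 16 passed the filter, and 2 (Hey2 and Nrarp) were more than 2-fold higher in both libraries, beside 2.74% of all genes, with medians of 0.19 and 0.32. Nrarp, a feedback inhibitor of the pathway, was at 1.67 (1.49 to 1.84) and 1.32 (0.96 to 1.65). The ligand Dll4 was at 1.10 in Cebpa FF and 0.55 in Cebpa KO, the ligand Jag1 at 0.91 and 1.05, and the receptor Notch1 at 0.88 and 0.32. Hes1, another target, was at -0.13 and -0.37, and the glycosyltransferases Mfng and Lfng, which tune ligand choice, were lower, at -0.49 and -0.53 and at -0.79 and -1.01.

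The elastic fibre and vessel wall matrix list had 11 of 19 genes more than 2-fold higher and 1 (Mfap2) more than 2-fold lower in both libraries, beside 2.74% and 1.65% of all genes, with medians of 1.21 and 1.97. Fibroblast and smooth muscle RNA, which also holds matrix genes, was raised in the same members, with list medians of 0.88 and 2.31 for fibroblast and 0.67 and 2.26 for smooth muscle markers. With cells rich in the markers of another type left out on both sides, a choice made after seeing the data, 11 of the 19 genes were more than 2-fold higher and 1 lower, with medians of 1.44 and 1.51. Among the higher, Mfap5 (1.05; -0.87 to 2.48) and Loxl1 (1.56; -0.38 to 3.02) had 4 Cebpa KO UMIs each, and their Cebpa KO intervals held 0. Fbln1, fibulin 1, had 58 of 83 UMIs in 3 Cebpa FF members and 17 of 23 in 3 Cebpa KO members. Mgp, matrix Gla protein, an inhibitor of calcification, was its most abundant gene, at 3163 and 2308 CPM against 172 and 130 CPM in general capillary cells, and at 3191 and 1364 CPM over all cells of at least 3000 UMIs. Ltbp4, which binds latent TGF-beta, was at 762 and 569 CPM with log2 ratios of 2.59 and 2.69. Fbln5 was at 2.44 and 3.32, and Eln, elastin, at 1.35 and 1.39. Of 13 basement membrane genes none was past 2-fold in both libraries, and the collagen IV chains Col4a1 (-0.67 and -0.71) and Col4a2 (-0.99 and -0.78) were lower in members.

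Of 19 genes of vessel tone and clotting 5 were more than 2-fold higher in both libraries and 1 lower, beside 2.74% and 1.65% of all genes. Plat, tissue plasminogen activator, was at 360 and 264 CPM with log2 ratios of 3.03 and 2.47. Vwf, von Willebrand factor, was at 2494 and 1521 CPM, beside 2297 and 2172 CPM in venous cells and 462 and 434 CPM in general capillary cells. Nos3, endothelial nitric oxide synthase, was at 1.62 and 1.14, and Thbd, thrombomodulin, was lower, at -0.97 and -0.76. Among VEGF receptors Kdr was lower, at -1.83 and -1.47, whereas Flt1 was at -0.05 and -0.01.

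Members were a smaller share of the Cebpa KO library. They were 4.19% (3.77 to 4.65) of cells of at least 3000 UMIs in Cebpa FF and 1.63% (1.33 to 1.97) in Cebpa KO. Of gated endothelial cells they were 344 of 6014 (5.72%; 5.15 to 6.34) and 101 of 3392 (2.98%; 2.43 to 3.61), a log2 ratio of -0.94 (-1.28 to -0.62). Venous cells were 16.3% (15.4 to 17.3) and 15.8% (14.6 to 17.0) and lymphatic cells 1.78% (1.46 to 2.15) and 1.36% (0.995 to 1.80) of the same cells, and these intervals overlapped between the libraries. General capillary cells were 36.7% (35.5 to 37.9) and 34.6% (33.0 to 36.2), and aerocytes 23.8% (22.8 to 24.9) and 29.8% (28.3 to 31.4). With 1 library per genotype, a difference between genotypes and a difference between libraries cannot be told apart.

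The conditions of the rule did not fall evenly. Of cells with at least 10 endothelial UMIs, 48 (0.792%) carried Ptprc in Cebpa FF and 741 (17.9%) in Cebpa KO. Of those with an arterial sum of 2 or more this condition removed 2 of 447 in Cebpa FF and 43 of 193 in Cebpa KO, and these 43 had a median of 14625 UMIs, 15 of them with a single Ptprc UMI and 19 with 5 or more. Without the condition on Ptprc the shares of cells of at least 3000 UMIs were 4.21% and 2.25%, and with every cell thinned to 3000 UMIs they were 2.56% (2.23 to 2.92) and 0.821% (0.612 to 1.08). The condition on venous genes removed a further 98 and 48 cells. In each of these settings the Cebpa KO share was the lower, and its size depended on them.

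**Figure D3:**
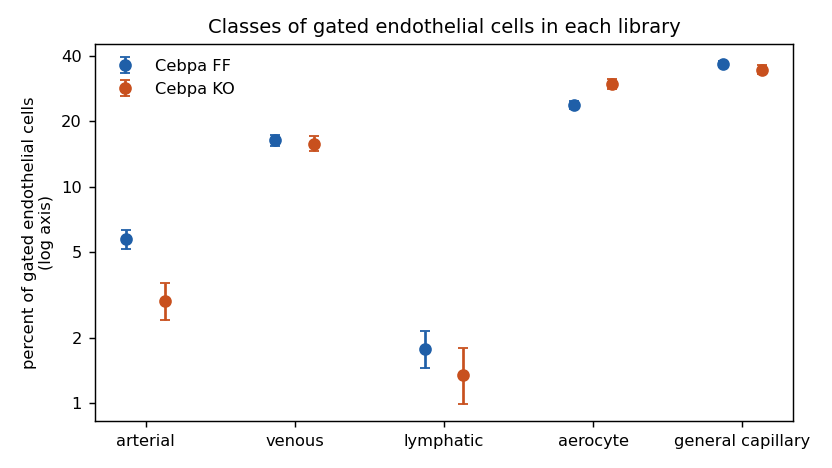
Percent (log axis) of gated endothelial cells in each class, with exact Clopper-Pearson 95% intervals; blue is the Cebpa FF library and orange the Cebpa KO library. Arterial cells are 5.72% and 2.98% with intervals that do not overlap, whereas venous cells are 16.3% and 15.8%.

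Some members carried RNA of another cell type. With limits of 50 UMIs of AT2 markers or 10 UMIs of the markers of another type, both set after the data were seen, 27 Cebpa FF members (7.85%) and 18 Cebpa KO members (17.8%) were mixed in this sense. In Cebpa FF, 6 members held 36044 of 38510 AT2-marker UMIs, with 4254 to 6761 each, and Sftpc was the most abundant. In Cebpa KO the 8 AT2 markers summed to 386 UMIs. Platelet markers summed to 87 and 312 UMIs, of which 4 Cebpa KO members held 284, and Pf4 was the most abundant. Smooth muscle markers summed to 470 and 344 UMIs, with 291 of the latter in 4 members, and fibroblast markers to 1332 and 1109 UMIs, with 1132 in 10 and 1025 in 6 members and Dcn the most abundant. Neutrophil markers summed to 9 UMIs in Cebpa FF, with Retnlg and Csf3r at 0, and to 161 in Cebpa KO, where 3 members held 64 of them.

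Between the genotypes, 7545 genes outside the rule had at least 50 UMIs over the members of both libraries. Of these 96 (1.27%) were more than 2-fold higher in Cebpa KO and 184 (2.44%) more than 2-fold lower, with a median log2 ratio of 0.00. Which direction held more genes depended on this filter. With no filter on counts more genes were higher than lower, as given below under the processing. The counting interval also lay above 0 for all 96 (1.27%) and below 0 for 172 (2.28%). With the mixed members left out, 35 of the 96 and 88 of the 184 were still more than 2-fold apart in the same direction, and 46 and 117 of them still passed the filter.

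Apart from genes lower in members than over all cells, Rbp7 and Ppp2r2c ranked lowest in Cebpa KO by the interval bound nearest 0. Both were at low levels in capillary cells of both libraries. Rbp7, a retinol-binding protein gene at chr4:149449687-149454978 (GRCm38, minus strand), had 542 UMIs in 73 of 344 Cebpa FF members (236 CPM) and 16 UMIs in 3 of 101 Cebpa KO members (20.02 CPM), a log2 ratio of -3.56 (-4.38 to -2.85). General capillary cells had 0.674 and 0.557 CPM of Rbp7, venous cells 6.73 and 0.664 CPM, and lymphatic cells 72.4 and 30.9 CPM. No member decided the Cebpa FF level of Rbp7, as the highest had 49 UMIs, and without the mixed members the ratio was -3.44 (-4.29 to -2.71). Ppp2r2c, a regulatory subunit of protein phosphatase 2A, had 206 UMIs in 98 Cebpa FF members and 4 UMIs in 4 Cebpa KO members, a ratio of -4.17 (-6.06 to -2.79). Both genes were lower in the Cebpa KO members with intervals far from 0, in 1 library against 1.

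Olfm2, an olfactomedin protein, was at 159 and 35.0 CPM, a log2 ratio of -2.18 (-2.79 to -1.63), and Atp13a3, a polyamine transporter, at 475 and 131 CPM, a ratio of -1.85 (-2.16 to -1.56). Slc45a4, itself a leading arterial gene, was at -2.02 (-2.52 to -1.56), and Enpp6, a choline-specific glycerophosphodiesterase, at -1.80 (-2.52 to -1.15). Psen2, a subunit of the gamma-secretase that cleaves Notch, was at 361 and 120 CPM, a ratio of -1.59 (-1.91 to -1.28), and Fbxw17 was at -2.08 (-2.95 to -1.32). Car8 was at -1.89 with all members and at -0.85 (-1.82 to 0.02) without the mixed ones. In general capillary cells the ratios of Atp13a3 (0.29), Fbxw17 (-0.28) and Psen2 (-0.61) were nearer to 0.

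Sele and Sfrp2 were carried by few cells. Sele, E-selectin, a leukocyte adhesion receptor, had 88 UMIs in 21 Cebpa FF members, 55 of them in 3 members, and 1 UMI in Cebpa KO. Sfrp2, a secreted Wnt modulator, had 75 UMIs in 16 Cebpa FF members and 0 in 101 Cebpa KO members, a log2 ratio of at most -3.12 with a floor of 3 counts for the library. Gm47283, a gene of unknown function on the Y chromosome (chrY:90784738-90816464, GRCm38, plus strand), was at 250 and 56.3 CPM, a log2 ratio of -2.15, and at -2.34 in general capillary, -2.06 in aerocyte and -2.18 in venous cells. A position on the Y chromosome alone does not show that this gene is specific to males. How many male and female mice each library held is not given in the sources used here, and whether sex bears on this ratio was not tested.

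As the libraries differed in the share of members at the threshold, the same genes were examined in members of 5 or more UMIs of the choosing genes, 124 in Cebpa FF and 26 in Cebpa KO. This did not equalise the choosing genes, of which Bmx was at 821 and 570 CPM there, Gja5 at 274 and 229.9 CPM and Dkk2 at 138 and 106 CPM, the last 2 with intervals of the ratio that held 0, and the cells held a median of 6000 and 7406 UMIs. The part of this gap in the ratios below was not tested. Rbp7 was found in 45 of 124 cells (36.3%; 27.8 to 45.4) and 1 of 26 (3.85%; 0.0973 to 19.6), and Ppp2r2c in 51 (41.1%; 32.4 to 50.3) and 3 (11.5%; 2.45 to 30.2). Atp13a3 was found in 72.6% (63.8 to 80.2) and 38.5% (20.2 to 59.4), Fbxw17 in 43.5% and 11.5%, and Olfm2 in 46.8% (37.8 to 55.9) and 23.1% (8.97 to 43.6). These intervals did not overlap for Rbp7, Ppp2r2c, Fbxw17 and Atp13a3. As these cells are part of the members over which the genes were picked for their fall, lower values here are a description, not a separate check. How many of all genes had shares that did not overlap was not counted. For Olfm2, Slc45a4, Enpp6 and Psen2 the shares overlapped, but the levels were lower in Cebpa KO with intervals below 0, at log2 ratios of -1.65 (-2.46 to -0.94), -1.61 (-2.28 to -1.01), -1.08 (-1.87 to -0.37) and -0.94 (-1.37 to -0.53). Car8 was at -0.65 (-1.62 to 0.20), and Gm47283 was found in 77.4% (69.0 to 84.4) and 38.5% (20.2 to 59.4).

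In the same cells several other arterial genes were lower in Cebpa KO. The choosing gene Bmx was at -0.53 there, a description only, since it was used to choose these cells. Of 3903 genes with at least 50 UMIs in these cells the interval lay above 0 for 289 (7.4%) and below 0 for 290 (7.43%). Of the 20 leading genes, which all passed this filter, 10 had an interval below 0 and none above, with a median log2 ratio of -0.75, and of the 18 genes of the arterial list that passed 6 had an interval below 0 and 1 (Sox17) above, with a median of -0.17. Among the lower were Cd55 (-2.09; -3.44 to -1.01), Pdlim3 (-1.59; -2.43 to -0.86), Pcsk5 (-1.36), Cdkn1c (-1.33; -1.77 to -0.93), Htra1 (-0.99), Fbln2 (-0.94; -1.32 to -0.58), Hey1 (-0.90), Adgrg6 (-0.80), Fads2 (-0.80), Dll4 (-0.63) and Efnb2 (-0.38; -0.62 to -0.15). Of Cdkn1c, 92 of its 164 Cebpa KO UMIs over all members lay in 3 of them. Hey2 was at -0.74 (-1.57 to 0.0032) and Jag2 at 0.61 (-0.54 to 1.65). Sox17 was at 0.64 (0.10 to 1.16), while the intervals of Gja4 (0.09; -0.28 to 0.45), Sema3g (0.06; -0.25 to 0.36), Mecom (-0.21; -0.59 to 0.16) and Cytl1 (-0.04; -0.25 to 0.16) held 0. Shares of cells with a UMI overlapped for all of these but Pdlim3, which was found in 62.9% (53.8 to 71.4) and 30.8% (14.3 to 51.8). Shares near 100%, such as those of Efnb2, say little about the level, and with 26 Cebpa KO cells differences smaller than these intervals were not detectable. Capillary markers were more often higher in these Cebpa KO cells. Intervals lay above 0 for the aerocyte markers Car4 (1.85), Tbx2 (1.84), Emp2 (1.18) and Chst1 (2.49, from 5 and 7 UMIs). Those of Ednrb, Fibin and Apln held 0. Among general capillary markers they lay above 0 for Glp1r (1.31), Kit (0.71) and Cd93 (0.66), and below 0 for Plvap (-0.32). Those of Gpihbp1, Aplnr and Lpl held 0. The part of capillary RNA in the lower levels was not tested.

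**Figure D4:**
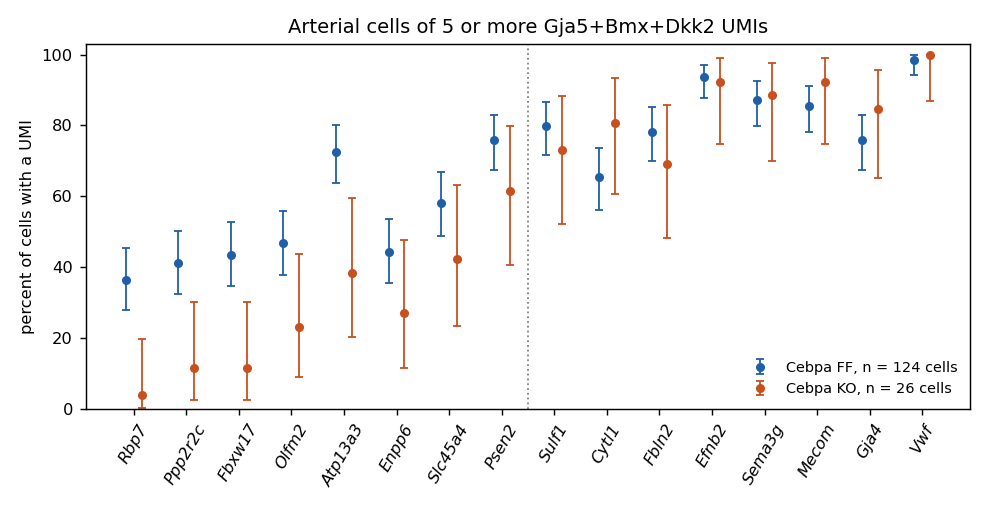
Percent of arterial members of 5 or more Gja5+Bmx+Dkk2 UMIs with at least 1 UMI of each gene (124 Cebpa FF cells in blue, 26 Cebpa KO cells in orange), with exact Clopper-Pearson 95% intervals. Genes left of the dotted line (Rbp7 to Psen2) were picked for their difference over all members; Rbp7 is at 36.3% and 3.85%, and the 8 genes on the right are arterial genes chosen after their values were seen, among which shares overlap, as for Efnb2 (93.5% and 92.3%), without showing that levels were alike.

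Of the 12 named genes higher in Cebpa KO members, 8 had most of their Cebpa KO UMIs in 3 members. Pf4 and Ppbp, platelet chemokines, had log2 ratios of 3.54 (3.06 to 4.05) and 3.16 (2.52 to 3.84), but 139 of 179 Pf4 UMIs and 75 of 84 Ppbp UMIs lay in 3 Cebpa KO members. Alox12 (2.78) and Nrgn (2.35), also platelet RNAs, had 32 of 48 and 81 of 98 UMIs in 3 members. Col3a1 (2.46), Dcn (1.5) and Lum (1.89), fibroblast matrix genes, and Des (2.69), the muscle filament desmin, had 216 of 248, 496 of 566, 65 of 71 and 26 of 36 UMIs in 3 members. Without the mixed members Lum was at 1.42 (0.32 to 2.51), Alox12 at 0.69 (-0.66 to 1.93), Pf4 at -0.29 (-1.74 to 0.95), Nrgn at -0.72, Col3a1 at -0.12 and Dcn at -0.070. The markers that set the mixed members apart include several of these genes, so lower values there follow in part from the choice of cells.

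The other 4 named genes were higher in other endothelial cells too. AY036118, a noncoding RNA that overlaps ribosomal RNA sequence, was at 1341 and 3978 CPM in members, a log2 ratio of 1.57 (1.497 to 1.64), and at 2.09 in general capillary cells. Ankrd37, a hypoxia-inducible gene, was at 2.77 (2.18 to 3.38) in members and 3.04 in general capillary cells, Ntrk2, the BDNF receptor TrkB, at 1.92 and 2.03, and Amd1, of polyamine synthesis, at 1.99 and 1.75. In aerocytes Ankrd37 was at 2.66, Ntrk2 at 2.49, AY036118 at 1.90 and Amd1 at 0.65. These 4 genes kept ratios from 1.55 to 2.74 in members without the mixed ones. In members of 5 or more choosing UMIs AY036118 was at 1.98, Ankrd37 at 2.39 and Ntrk2 at 1.30 (0.068 to 2.46), whereas Amd1, with 25 and 5 UMIs, was at -0.32 (-2.06 to 1.10).

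Some genes were at lower CPM in members than over all cells of the same library and differed between the libraries in the same direction over all cells. S100a9, a neutrophil calprotectin subunit, had 3 UMIs in Cebpa FF members and 98 UMIs in 43 Cebpa KO members (123 CPM), and over all cells of at least 3000 UMIs it was at 11.99 and 2426 CPM. Chil3, a macrophage chitinase-like protein, had 0 and 63 UMIs, and was at 2.72 and 1099 CPM over all cells. Ifi27l2a (3.93), S100a4 (3.87) and Plek (3.79) were also higher, and over all cells they were at 93.9 and 262 CPM, 17.9 and 214 CPM, and 23.5 and 151 CPM. Of their Cebpa KO UMIs 116 of 159, 44 of 56 and 39 of 58 lay in 3 members. Without the mixed members they were at 9.49 and 33.6 CPM, 5.80 and 25.6 CPM, and 3.16 and 12.8 CPM. In members of 5 or more choosing UMIs Ifi27l2a was at 2.01 (0.83 to 3.18) and S100a4, with 11 and 2 UMIs, at 0.13 (-2.35 to 2.05). Plek was at 4.12 there, from 1 Cebpa FF UMI floored at 3 and 13 Cebpa KO UMIs in 2 cells. Surfactant RNA was lower in Cebpa KO members, with Sftpc at 13068 and 265 CPM, and without the mixed members, which AT2 RNA itself helped to choose, Sftpc was at 834 and 89.6 CPM. Sftpa1, Sftpb, Slc34a2 and Cxcl15, further AT2 genes, had ratios of -5.38 to -4.02 with all members and -2.37 to -0.88 without the mixed ones. With free RNA subtracted Sftpb (3.05) and Cxcl15 (2.40) turned direction, and with the mixed members also left out Cxcl15 was at 0.32, so the direction of these 2 genes depends on the processing. Over all cells Sftpc was at 29032 and 3821 CPM, and Sftpa1 at 4104 and 721 CPM. The part of RNA from other cells in these ratios was not tested.

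**Figure D5:**
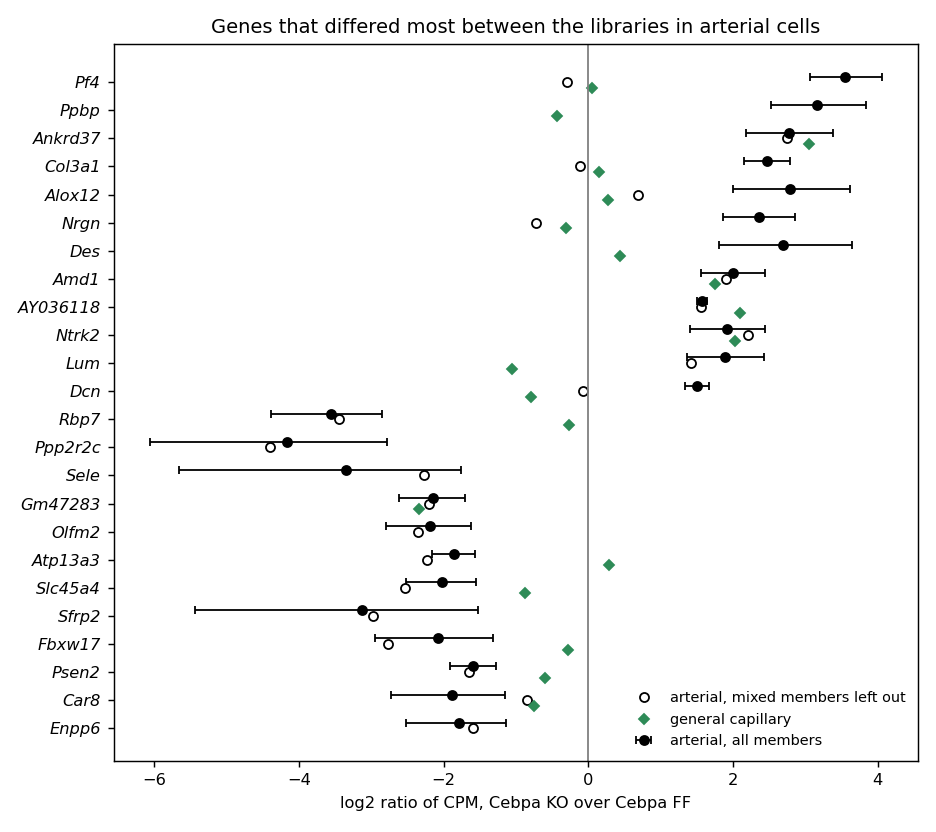
Log2 ratio of CPM, Cebpa KO over Cebpa FF, for the 12 genes highest and the 12 lowest by the interval bound nearest 0. Black points with exact 95% counting intervals are all arterial members, open circles leave out mixed members (Ppbp and Des had too few UMIs left), and green diamonds are general capillary cells where both libraries had over 3 UMIs. Rbp7, Ppp2r2c, Olfm2 and Atp13a3 stay low in the open circles, while Pf4, Col3a1, Nrgn and Dcn lie below 0 there, in part by the choice of cells. Lum is at 1.42 there, from 15 Cebpa KO UMIs in 3 members.

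Over all members, arterial genes were more often lower than higher in Cebpa KO. The 20 leading genes were picked from these same members by a contrast on the choosing genes, so this is a description. Among the choosing genes Bmx was itself at 502 CPM in Cebpa FF and 303 CPM in Cebpa KO members. Cells with exactly 2 choosing UMIs were 34.3% of Cebpa FF and 51.5% of Cebpa KO members. The part of these gaps in the ratios below was not tested. Of the 20 leading genes 6 (Hey2, Slc45a4, Pdlim3, Fads2, Fbln2 and Adgrg6) were more than 2-fold lower in Cebpa KO and none higher, the interval lay below 0 for 14 and above 0 for 1 (Sfrp1), and the median log2 ratio was -0.67. Of all 7545 genes the interval lay above 0 for 686 (9.09%) and below 0 for 630 (8.35%). Capillary markers were more often higher in the same Cebpa KO members. Of 6 aerocyte markers the interval lay above 0 for 5 and below 0 for 0, with a median of 0.60. Of 7 general capillary markers it lay above 0 for 4 and below 0 for 1, with a median of 0.18. Pdlim3, an actin-binding protein, had 287 and 38 UMIs, a ratio of -1.40 (-1.93 to -0.91), and Adgrg6 was at -1.32 and Fads2 at -1.16. Of the 20 arterial list genes 1 (Jag2) was more than 2-fold higher and 1 (Hey2) more than 2-fold lower in Cebpa KO, the interval lay above 0 for 4 and below 0 for 9, and the median log2 ratio was -0.13, beside 0.00 over all genes and 0.00 for the list in general capillary cells. Hey2 was at -1.03 (-1.69 to -0.42), Dll4 at -0.71 (-1.001 to -0.43), Efnb2 at -0.47 (-0.61 to -0.34) and Sox17 at 0.98 (0.75 to 1.21). Jag2 was at 38.8 and 86.3 CPM. Neither Hey2 nor Jag2 was past 2-fold without the mixed members, at 68.5 and 38.4 CPM and at 43.8 and 86.4 CPM, or in members of 5 or more choosing UMIs, where their intervals held 0. Of 15 Notch pathway genes the same Jag2 and Hey2 were past 2-fold, and the median was -0.08. Of 19 elastic fibre and vessel wall genes, Fn1 (1.52) and Loxl2 (1.47) were more than 2-fold higher, with 35 of 60 and 21 of 27 Cebpa KO UMIs in 3 members, and Fbln2 (-1.08; -1.37 to -0.80) more than 2-fold lower, with a median of -0.24, beside 1.27% and 2.44% of all genes past 2-fold in these directions.

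Basement membrane genes had a median of 0.18 in members and 0.85 in general capillary cells. In members 1 of 11 was more than 2-fold higher, beside 1.27% of all genes. With free RNA subtracted the member median was 1.23, and 0.24 with the mixed members also left out. In members of 5 or more choosing UMIs it was -0.17 over the 9 genes that passed the filter, with 1 interval above 0 and 0 below. Col4a1 was at 378 and 662 CPM (0.81; 0.65 to 0.96), Col4a2 at 1.13 (0.90 to 1.36) and Sparc, a collagen-binding glycoprotein, at 0.94 (0.78 to 1.10), and in members of 5 or more choosing UMIs Sparc was at -0.13 (-0.52 to 0.24), Col4a1 at 0.23 (-0.17 to 0.62) and Col4a2 at 0.78 (0.25 to 1.30). Hspg2, perlecan, was at -0.25 (-0.83 to 0.31) in members and 2.09 (1.63 to 2.57) in general capillary cells. All 5 MHC class II genes, which present antigen to CD4 T cells, had intervals above 0, with a median of 0.92 in members and 0.70 in general capillary cells, beside the 9.09% of all genes with such an interval. Their summed level was 1223 and 2117 CPM in members and 1832 and 4099 CPM over all cells of at least 3000 UMIs, and the part of RNA from other cells was not tested. Cd74, the invariant chain, was at 633 and 1067 CPM, and Ciita, the transactivator, at 10.5 and 35.0 CPM. In members of 5 or more choosing UMIs 2 of the 4 genes that passed the filter had an interval above 0, Cd74 was at 394 and 377 CPM (-0.06; -0.43 to 0.29) and H2-Aa at 0.45 (-0.13 to 0.998). Immediate-early genes had a median of 0.28, with 0 of 14 past 2-fold and intervals above 0 for 7 and below 0 for 0. Heat shock genes had a median of 0.25, with 1 (Hspa1a) of 11 past 2-fold and intervals above 0 for 5 and below 0 for 1. The interferon response and MHC class I list had a median of 0.09 and 0 of 16 past 2-fold, with intervals above 0 for 5 and below 0 for 2. Of all genes 9.09% and 8.35% had such intervals, and 1.27% and 2.44% were past 2-fold higher and lower. In members of 5 or more choosing UMIs Fos, Fosb and Egr1 had intervals below 0 and Ier3 and Nr4a1 above 0. None of these list values had a test. Of 14 endothelial junction and adhesion genes the interval lay above 0 for 3 and below 0 for 5, beside 9.09% and 8.35% of all genes, with a median of -0.05. Vcam1, a leukocyte adhesion receptor, was among the lower (-0.95; -1.25 to -0.67), and was at -0.81 (-1.22 to -0.42) in members of 5 or more choosing UMIs. F11r, Jam2, Esam and Tjp1 had intervals above 0 in those members, as did 7.4% of all genes there.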

How the data were processed

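Lung cells of 1 Cebpa FF and 1 Cebpa KO library were measured by 10x scRNA-Seq. The authors deposited raw UMI counts per gene and cell barcode, not normalized, made with Cell Ranger (version 6.1.1 in the submitters' processing notes and 5.0.0 in the file header) on mm10. The deposited counts cover all barcodes called as cells, so the filter on genes and mitochondrial UMIs was applied here. Python 3.11.15 with numpy 2.4.6, scipy 1.17.1, pandas 2.3.3, scanpy 1.11.5 and matplotlib 3.10.9 was used. Positions are those of GENCODE for GRCm38 and promoters those of RefSeq.

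For each class, the counts of its cells were added up within a library and divided by their total (CPM). A log2 ratio floors each count at 3 and has the exact 95% interval of the ratio of 2 Poisson counts, and shares have Clopper-Pearson intervals. The ratio was run on simulated Poisson counts, which checks the calculation only. The simulation left out the uneven spread of RNA over members seen here for some genes. There were no p-values, since cells are not replicates. Called means past 2-fold, and genes with a symbol that was not unique (78 rows) were left out. Aerocytes had at least 2 UMIs of Ednrb, Apln, Fibin and Tbx2, general capillary cells none of these and at least 2 of Gpihbp1, Aplnr and Kit, and venous and lymphatic cells at least 3 UMIs of the genes named in the rule. Named genes were the 20 highest and 10 lowest by the weaker library, and the 12 highest and lowest (5 for genes below the library's level) by the interval bound nearest 0. Other genes come from 35 lists. Members, lists and genes were chosen with earlier results of these data known.

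Doublets were kept. Scrublet's automatic threshold called 0 cells in either library, so the highest 8% of scores were left out as an alternative. Other alternatives were the UMI minimum, the threshold on the choosing genes, thinning to 3000 UMIs, cell filters, scaling, count filters and subtraction of free RNA.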

Additional observations from a re-analysis of the deposited data

Results flagged for a closer look

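For 5 genes the ratio of Cebpa KO over Cebpa FF lay on opposite sides of 0 in arterial and general capillary cells, with both counting intervals clear of 0. The difference of the log2 ratios, arterial less general capillary, was 3.59 for Ppbp, 2.66 for Nrgn, 2.94 for Lum, 2.29 for Dcn and -5.82 for Sele, a value set by counts of 1 floored at 3 and so not an estimate of size. The difference was not tested, as each genotype had 1 library. In Ppbp, Nrgn, Lum and Dcn the UMIs of Cebpa KO arterial cells lay mostly in 3 members (75 of 84, 81 of 98, 65 of 71 and 496 of 566). Sele rested on 1 and 10 UMIs in general capillary cells of Cebpa FF and Cebpa KO, and on 88 and 1 UMIs in arterial cells.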

How the results depend on the processing

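No paired analysis was possible because each genotype had 1 library, so there was also no replicate to leave out. Of the values that answer a comparison, 110 kept their direction and size under an alternative and 41 moved. Of the values of single named genes, 413 kept their direction and size, 246 moved and 28 reversed. The cause of the changes below was not tested unless fewer cells or genes make it plain.

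The lower share in Cebpa KO kept its direction in every setting run. Shares in Cebpa FF and Cebpa KO were 8.55% and 3.91% from 1 UMI of the choosing genes, 2.75% and 0.789% (log2 ratio -1.80) from 3, 1.90% and 0.531% (-1.84) from 4, 2.56% and 0.821% after thinning, and 5.72% and 2.98% (-0.94) of gated endothelial cells. From 1000 UMIs per cell Cebpa KO was at 0.929% (-2.03), and from 5000 Cebpa FF was at 3.57%. In settings chosen after seeing the data, Cebpa KO was at 2.25% (-0.90) without the condition on Ptprc, and the shares were 5.25% and 2.37% without that on venous genes.

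Genes more than 2-fold higher and lower in Cebpa KO (96 and 184) numbered 295 and 500 from 20 counts, 16 and 42 from 200, and 795 and 509 with no filter. Those higher numbered 46 after thinning, 63 from 3 choosing UMIs, 57 from 4, and 279 with free RNA subtracted. They were 59 without mixed members and 57 with free RNA subtracted and mixed members left out, both chosen after seeing the data. Genes higher than in other endothelial cells (317) numbered 211 after thinning and 156 from 200 counts, and those lower (191) numbered 297 from 4 choosing UMIs and 63 against general capillary cells.

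Subtraction of free RNA took 48.6% of member UMIs in Cebpa FF and 8.01% in Cebpa KO, but 3.18% and 3.87% once mixed members were left out, so the former shares rest on those cells. With all members, list medians became -0.74 (arterial), 1.23 (basement membrane), 0.50 (heat shock) and 1.53 (MHC class II). From 4 choosing UMIs the MHC class II median was 1.16.

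Some single genes changed sign. From 4 choosing UMIs Col3a1 was at -0.93, Lum at -1.95 and Dcn at -0.77. With free RNA subtracted Sftpb was at 3.05 and Cxcl15 at 2.40, and with mixed members also left out Pf4 was at -0.76, Col3a1 at -0.65, Nrgn at -0.87 and Cxcl15 at 0.32. Without mixed members alone, Pf4 was at -0.29, Col3a1 at -0.12, Nrgn at -0.72 and Dcn at -0.070. Against other endothelial cells without mixed ones, Hba-a2 was at 0.24 in Cebpa FF, and in Cebpa FF and Cebpa KO Hbb-bt was at 0.13 and 0.090 and Hba-a1 at 0.64 and 0.64. Against general capillary cells Rgs6 was at 1.08 and 1.71, Egflam at 1.498 and 1.36, Chst2 at 1.37 and 0.47, and Rspo3 at 1.52 and 3.17. Apln was at 5.69 and 4.39 there, values that the definition of general capillary cells (no Apln) and the floor of 3 counts set.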
